A study of Homo sapiens with 6 samples.

Results

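Chromosome 1 contributed 3153 of the 28879 accessible regions that were found in 6 ATAC-seq libraries of the human hepatocellular carcinoma line Huh7. A region here is the merged interval of all peaks of the 6 deposited peak lists that overlapped by at least 1 bp. Every region on chromosome 1 was kept, and the regions were described by arm and in fixed segments of 15 Mb counted from the first base. The chromosome was selected on the readout itself, because the read density around its peaks had differed between WT libraries and libraries carrying V2084D in these data. Values of that contrast on chromosome 1 are therefore given as a description, with no test.

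All libraries came from cells in which endogenous ARID1A, a subunit of the SWI/SNF chromatin remodelling complex, was knocked out. The V2084D libraries carried a lentiviral, Flag-tagged ARID1A with the missense change V2084D. The V2084D shSTUB1 libraries carried the same transgene together with a hairpin against STUB1, a chaperone-associated ubiquitin ligase. The WT libraries carried a lentiviral, Flag-tagged wild-type ARID1A. Each of the 3 groups had 2 libraries, and V2084D and V2084D shSTUB1 are called the 4 V2084D-carrying libraries below. The titles name no control hairpin in the V2084D and WT groups, the promoter driving the transgene is not stated in the labels, and nothing says whether replicates came from separate cultures of these frozen cells or whether each line was 1 clone, so line, clone and genotype cannot be told apart.

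Chromosome 1 is the longest human chromosome. Its short arm carries ARID1A and many housekeeping genes, and its long arm carries the epidermal differentiation cluster, a histone gene cluster and many genes named as oncogene candidates. In ATAC-seq the transposase Tn5 cuts accessible DNA, so promoters of active genes give sharp peaks, while reads scattered between peaks are sparse. The local background used below is the reads in the 10 kb around a peak's summit, so it includes the peak's own reads. That background counts the DNA copies of a stretch and their accessibility together, and the peak lists cannot tell them apart. In liver cancer, gain of the long arm and loss of the distal short arm of chromosome 1 are long-known recurrent changes.

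The promoters below belong to the highest-ranked regions of 3 groups of chromosome 1 genes that have an entry in the promoter table, and they show what the regions compared here look like as DNA. Each holds the 300 bases from 250 before to 50 after the RefSeq start site (GRCh38.p14), printed along the gene's strand. Capitals mark matches on either strand to 2 of the 7 motifs searched, the NFY motif CCAAT and the SP/KLF motif GGGCGG, written ATTGG and CCGCCC where the match is on the other strand. ARMH1 on the short arm (chr1:44674464-44674763, plus strand) and ENSA on the long arm (chr1:150629563-150629862, minus strand) had a peak in all 6 libraries. DHX9 on the long arm (chr1:182839097-182839396, plus strand) had a peak in all 4 V2084D-carrying libraries and in neither WT library.
ARMH1: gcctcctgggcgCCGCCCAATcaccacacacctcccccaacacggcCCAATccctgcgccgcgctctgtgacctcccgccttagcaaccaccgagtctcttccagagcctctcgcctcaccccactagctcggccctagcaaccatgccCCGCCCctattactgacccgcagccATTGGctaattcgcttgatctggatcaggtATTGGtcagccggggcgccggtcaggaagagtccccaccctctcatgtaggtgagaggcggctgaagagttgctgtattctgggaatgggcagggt
ENSA: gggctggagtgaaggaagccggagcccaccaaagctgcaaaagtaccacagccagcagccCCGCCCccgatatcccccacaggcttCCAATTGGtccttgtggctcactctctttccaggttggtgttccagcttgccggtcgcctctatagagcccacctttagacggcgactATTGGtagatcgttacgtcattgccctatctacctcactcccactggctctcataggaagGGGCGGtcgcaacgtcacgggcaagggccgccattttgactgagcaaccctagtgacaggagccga
DHX9: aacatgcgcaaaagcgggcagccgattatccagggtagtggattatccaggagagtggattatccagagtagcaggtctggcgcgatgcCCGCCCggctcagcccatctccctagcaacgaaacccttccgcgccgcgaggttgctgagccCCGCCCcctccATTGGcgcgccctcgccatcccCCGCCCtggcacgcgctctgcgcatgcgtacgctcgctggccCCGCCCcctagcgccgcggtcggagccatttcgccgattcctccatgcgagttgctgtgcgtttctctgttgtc
The ARMH1 promoter held 4 NFY and 2 SP/KLF matches, of which 1 NFY and 1 SP/KLF match overlap, the ENSA promoter 3 NFY and 2 SP/KLF matches, of which 2 NFY matches overlap, and the DHX9 promoter 1 NFY and 4 SP/KLF matches. None of the 3 held a match to the ETS letters CCGGAAG, the E-box CACGTG, the CRE letters TGACGTCA, the AP-1 letters TGANTCA or the YY1 letters AAGATGGCG. CCAAT or its reverse occurred in 34.6% of all 35116 promoters of the table and in 45.7% of the 552 promoters of chromosome 1 genes with a peak in all 6 libraries. GGGCGG occurred in 45% of all promoters and in 70.7% of those 552. The ETS letters stood in 10.3% of all promoters, the E-box in 7.26%, the CRE letters in 1.85%, the AP-1 letters in 7.71% and the YY1 letters in 1.75%. The promoters of chromosome 1 genes with a peak in all 6 libraries had a median GC content of 64.0%, against 54.7% for the 897 promoters of genes with no gene-end peak in any library.

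The lists differed in length and depth before any comparison. On the 23 chromosomes kept, the V2084D libraries held 8008 and 22215 regions, the V2084D shSTUB1 libraries 16687 and 12320, and the WT libraries 8861 and 6394. Taking the lowest library as 1, the depth was 1.17 and 1.83 in V2084D, 1.49 and 1.23 in V2084D shSTUB1, and 1.01 and 1 in WT. Peaks rested on few reads, with a median of 8 to 12 at the summit, so a missing peak was not detectable at this depth and does not show a closed region. Of 15 hepatocyte and hepatoma markers, 5 had a gene-end peak in any library and none in all 6. These were CEBPA and FOXA3 in 5 libraries each, TF in 4, APOA1 in 3 and FOXA1 in 1. ALB, AFP, APOB, TTR and HNF4A were among those without a peak. Of the markers of other cells, 1 of 5 leukocyte, 1 of 4 endothelial, 2 of 5 fibroblast and 2 of 4 neuronal genes had one in any library, and COL1A1 and SYT1 had one in all 6.

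The share of regions on chromosome 1 overlapped between the groups. Chromosome 1 held 991 and 2458 regions in the V2084D libraries, 1886 and 1484 in the V2084D shSTUB1 libraries, and 1026 and 784 in the WT libraries. As a share of each library's regions this was 12.4% and 11.1% in V2084D, 11.3% and 12% in V2084D shSTUB1, and 11.6% and 12.3% in WT, and the groups overlapped. The short arm held 1757 of the 3153 regions and the long arm 1396, with the arms parted at the middle of the widest stretch without a RefSeq gene, from 121571889 to 143299517. The short arm took 6.66% and 6.16% of the regions in V2084D, 6.11% and 6.62% in V2084D shSTUB1, and 6.36% and 6.76% in WT. The long arm took 5.72% and 4.91% in V2084D, 5.19% and 5.42% in V2084D shSTUB1, and 5.21% and 5.51% in WT. The difference between the long and the short arm share was 0.12 percentage points higher in V2084D-carrying than in WT libraries, within the SD of 0.18 points between replicates.

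Presence by segment gave the same picture. The segment from 30 to 45 Mb held the most regions, 360, and took 1.75% and 1.39% of the regions in V2084D, 1.37% and 1.65% in V2084D shSTUB1, and 1.51% and 1.77% in WT. All 4 V2084D-carrying libraries lay above both WT libraries in 1 of the 17 segments, from 210 to 225 Mb, and below both in 1, from 150 to 165 Mb. Over the whole genome this happened in 14.4% of 209 segments in each direction, so the 2 segments of chromosome 1 do not exceed the background.

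**Figure D1:**
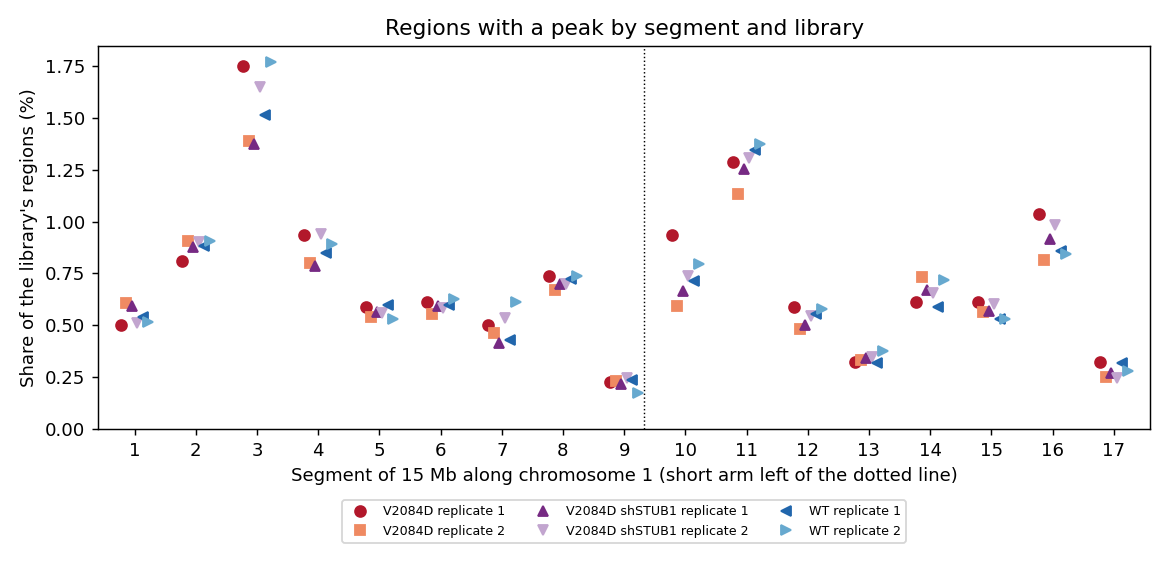
Share of each library's regions that lay in each 15 Mb segment of chromosome 1 (y axis, percent, from 0), with segments numbered from the short arm end on the x axis and 1 symbol per library. Red and purple symbols are the 4 V2084D-carrying libraries and blue symbols the 2 WT libraries; the symbols mix in nearly every segment, and segment 3 is the fullest, with shares of 1.37% to 1.77%.

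Over the genome, far more regions were private to the V2084D-carrying libraries (776) than to WT (19), and chromosome 1 had the same imbalance. On chromosome 1, 99 regions (3.14%) had a peak in all 4 V2084D-carrying libraries and in neither WT library, against a genome background of 2.69%. They numbered 46 of 1757 on the short arm (2.62%) and 53 of 1396 on the long arm (3.8%). The 3.14% lay near the genome background, so the count of 99 is no result about chromosome 1. The opposite, a peak in both WT libraries and in no V2084D-carrying library, was met by 1 region of chromosome 1, against a genome background of 0.0658%. That region lay from 200039490 to 200039817 inside NR5A2, a nuclear receptor of liver and pancreas, with folds of 3.52 and 4.29 over local background in WT replicates 1 and 2. Its peaks were weak, with 4 and 5 reads at the summit and a mean percentile of −log10 q of 5.31 within the WT lists. Regions shared by the 2 V2084D libraries and missing from both WT lists numbered 89 on the short arm and 87 on the long arm (genome background 5.56%), and the reverse for 1 and 2 regions (0.187%). For V2084D shSTUB1 against WT the numbers were 159 and 144 (8.46%), and the reverse for 2 and 2 (0.246%). Between V2084D shSTUB1 and V2084D, 23 short arm and 21 long arm regions were private to V2084D shSTUB1 (1.29%) and 20 and 17 to V2084D (1.19%). Leaving out 1 library drops a condition of this rule, which by itself can only keep or raise the count of 99. It was 262 without V2084D replicate 1, 268 without WT replicate 1 and 152 without WT replicate 2. With all lists cut to 7234 summits it was 32, and 14 regions were then private to WT. The part of list length in the count of 99 was not tested.

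The local background on chromosome 1 was higher in the V2084D-carrying libraries. It was recovered for every peak from its deposited fold and p as the reads in the 10 kb around the summit, and it was compared in the 481 chromosome 1 regions with a peak in all 6 libraries. Relative background is the reads of a region divided by the library's median over all 3269 regions of the genome with a peak in all 6, so that 1 is a typical region and 0 its log2. The 481 are the strongest members only: 1348 of the 3153 regions had a peak in 1 library and 1324 in 2 to 5 libraries. Over the whole chromosome the median relative background was 1.24 and 1.19 in V2084D, 1.22 and 1.23 in V2084D shSTUB1, and 1.07 and 1.11 in WT. All 4 V2084D-carrying libraries thus lay above both WT libraries, by 0.17 on the log2 scale. Chromosome 1 ranked second of 23 chromosomes for this difference, after chromosome 6 (0.26).

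Both arms showed the difference. On the short arm (259 regions) the median relative background was 1.29 and 1.27 in V2084D, 1.27 and 1.32 in V2084D shSTUB1, and 1.09 and 1.13 in WT. On the long arm (222 regions) it was 1.15 and 1.14 in V2084D, 1.18 and 1.15 in V2084D shSTUB1, and 1.05 and 1.08 in WT. All V2084D-carrying libraries were above both WT libraries on either arm, by 0.21 log2 on the short and 0.12 on the long arm. The long minus short arm difference was lower in V2084D-carrying than in WT libraries by -0.09 log2, with an SD of 0.04 between replicates, and it turned to 0.03 where a peak had to cover 50% of its region, which left 72 matched regions. For the reads at the summit the same arm difference was -0.04 log2, with an SD of 0.06, and the groups overlapped.

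The 15 Mb segments showed where the difference lay. From 30 to 45 Mb, 84 matched regions had a median of 68.5 and 143 reads per 10 kb in V2084D, 106.5 and 83.5 in V2084D shSTUB1, and 52.0 and 46.5 in WT. Relative to the library median these were 1.67 and 1.61 in V2084D, 1.59 and 1.58 in V2084D shSTUB1, and 1.21 and 1.22 in WT. The 4 V2084D-carrying libraries averaged 0.69 ± 0.04 log2 (SD, n = 4) and the WT libraries stood at 0.27 and 0.29, a ratio of 1.32. From 45 to 60 Mb (35 regions) relative background was 1.61 and 1.46 in V2084D, 1.52 and 1.60 in V2084D shSTUB1, and 1.23 and 1.18 in WT. From 60 to 75 Mb (21 regions) it was 1.49 and 1.45 in V2084D, 1.40 and 1.36 in V2084D shSTUB1, and 1.05 and 0.974 in WT. The ratio of 1.41 was the highest of the chromosome. For the reads at the summit the difference there was 0.29 log2, against 0.39 from 30 to 45 Mb. All 4 V2084D-carrying libraries lay above both WT libraries in 9 of the 21 regions, against 54 of 84 from 30 to 45 Mb. In these 3 neighbouring segments every V2084D-carrying library exceeded both WT libraries.

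Towards both sides the difference became smaller. From 75 to 90 Mb and from 90 to 105 Mb the V2084D-carrying libraries were higher by 0.16 log2 in each segment. From 105 to 120 Mb (26 regions) the medians were 1.18 and 1.16 in V2084D, 1.10 and 1.21 in V2084D shSTUB1, and 1.16 and 1.12 in WT, so the groups overlapped. At the start of the chromosome the sign was the other one. From 15 to 30 Mb (30 regions) relative background was 0.988 and 1 in V2084D, 0.978 and 0.953 in V2084D shSTUB1, and 1.07 and 1.03 in WT, which put all 4 V2084D-carrying libraries below both WT libraries by -0.10 log2. From 0 to 15 Mb (16 regions) it was 0.780 and 0.719 in V2084D, 0.687 and 0.717 in V2084D shSTUB1, and 0.756 and 0.882 in WT, and the groups overlapped.

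The long arm held a further raised stretch near its end. From 225 to 240 Mb, 38 regions had a relative background of 1.56 and 1.67 in V2084D, 1.72 and 1.57 in V2084D shSTUB1, and 1.24 in both WT libraries, a ratio of 1.31, or 0.39 log2. The difference was 0.23 without WT replicate 2, 0.24 with peaks of −log10 q of at least 5, 0.25 over the regions shared by each pair of libraries and 0.28 with 50% coverage of the region. The other long arm segments with 10 or more matched regions differed by 0.01 to 0.18 log2, all positive. Groups did not overlap in 4 of these 7, which were 135 to 150, 180 to 195, 210 to 225 and 240 to 255 Mb. The segment from 120 to 135 Mb, next to the centromere, held 4 matched regions and was not compared.

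**Figure D2:**
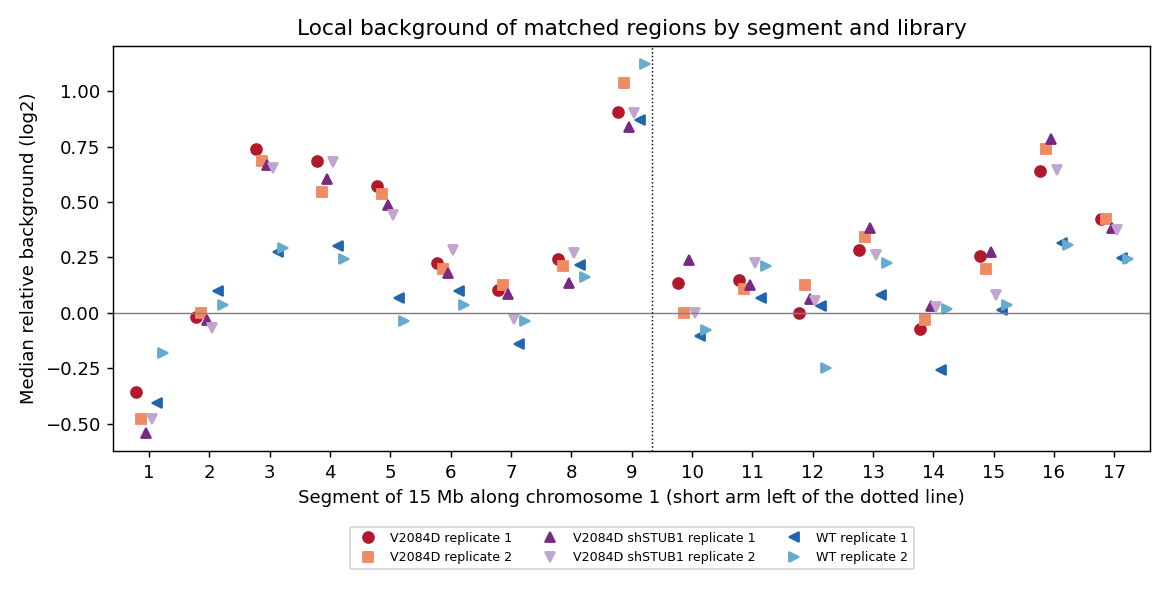
Median relative background (y axis, log2, 0 is the median of all matched regions of the genome) of each 15 Mb segment of chromosome 1 (x axis, numbered from the short arm end) in each library. The 4 V2084D-carrying libraries stand above both WT libraries by 0.36 to 0.50 log2 in segments 3 to 5 and by 0.39 in segment 16, and below them by -0.10 in segment 2; segment 9 rests on 4 regions.

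In all, groups did not overlap in 11 of the 16 segments compared, 10 above and 1 below. Over the genome, all 4 V2084D-carrying libraries lay above both WT libraries in 22.2% of 126 segments and below both in 19.8%. The 110 segments of the other chromosomes had 18 above and 24 below. Of the 6 segments with the largest positive difference of the 126, 4 lay on chromosome 1 and 2 on chromosome 6. Without the scaling to each library's own median, the groups did not overlap in 4 segments of chromosome 1, those from 30 to 45, 45 to 60, 60 to 75 and 225 to 240 Mb, all above, and every segment's difference was 0.09 log2 higher, which left -0.01 from 15 to 30 Mb. The statements on the other 7 segments therefore depend on that scaling.

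**Figure D3:**
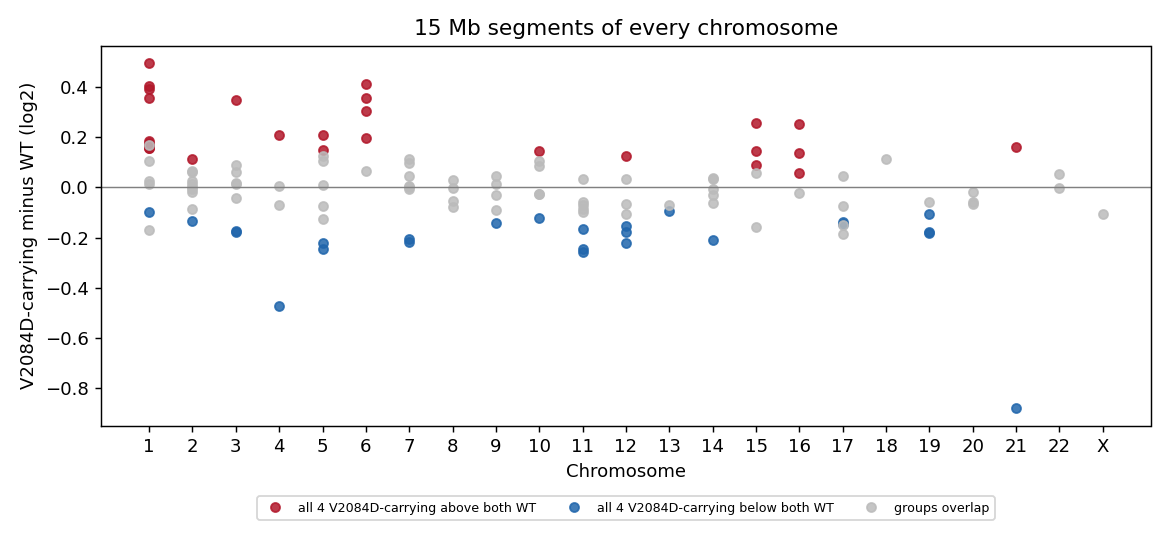
Difference of median relative background, V2084D-carrying minus WT (y axis, log2), for each of 126 segments of 15 Mb with at least 10 matched regions, by chromosome (x axis). Red points are segments where all 4 V2084D-carrying libraries lay above both WT libraries, blue points those where all 4 lay below, and grey points those where groups overlapped; chromosome 1 has 10 red points and 1 blue.

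Single regions gave counts in the same direction. Of the 481 matched regions of chromosome 1, 166 (34.5%) had all 4 V2084D-carrying libraries above both WT libraries, against a genome background of 13.9%. All 4 were below in 24 (4.99%), against 13.2%. The genome background includes chromosome 1, and the other chromosomes alone had 10.3% above and 14.6% below. From 30 to 45 Mb these were 54 of 84 above and 2 of 84 below. The reads at the summit gave 91 regions (18.9%) above, against a background of 9.42%, and 24 (4.99%) below, against 10.9%. For these reads the other chromosomes alone had 7.78% above and 11.9% below. Summit reads were higher from 30 to 45 Mb by 0.39 log2, close to the 0.40 of the background. Both values were solved from the same fold and p, and the 10 kb around a summit contain its reads. Their closeness is therefore no separate support. Of the matched regions, 35 lay within 10 kb of another and so shared part of its background window.

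The boundaries were placed by fitting levels of constant height to the difference of the 481 regions in their order along the chromosome, with at least 20 regions per level. With 2 breaks the fit gave 44 regions with a mean of -0.23 log2, then 112 with 0.40, then 325 with 0.15, and the SD between regions within a level was 0.26 to 0.45. The medians of the 3 levels were -0.13, 0.39 and 0.15 log2. The first level held 4 regions near the short arm end with a mean of -1.38 log2, and the mean of its other 40 regions was -0.12. The first boundary fell between the regions ending at 28737445 and starting at 29181143, and the second between those ending at 53221012 and starting at 53838004. Among the 112 regions between them, 72 (64.3%) had all 4 V2084D-carrying libraries above both WT libraries and 2 (1.79%) below. The genome background was 13.9% above and 13.2% below. The level was fitted to this same difference, so the counts are no separate support for it. The median relative background of the 112 regions was 1.67 and 1.62 in V2084D, 1.66 and 1.62 in V2084D shSTUB1, and 1.23 and 1.24 in WT. Before the first boundary it was 0.902 and 0.876 in V2084D, 0.888 and 0.887 in V2084D shSTUB1, and 0.977 and 0.961 in WT.

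**Figure D4:**
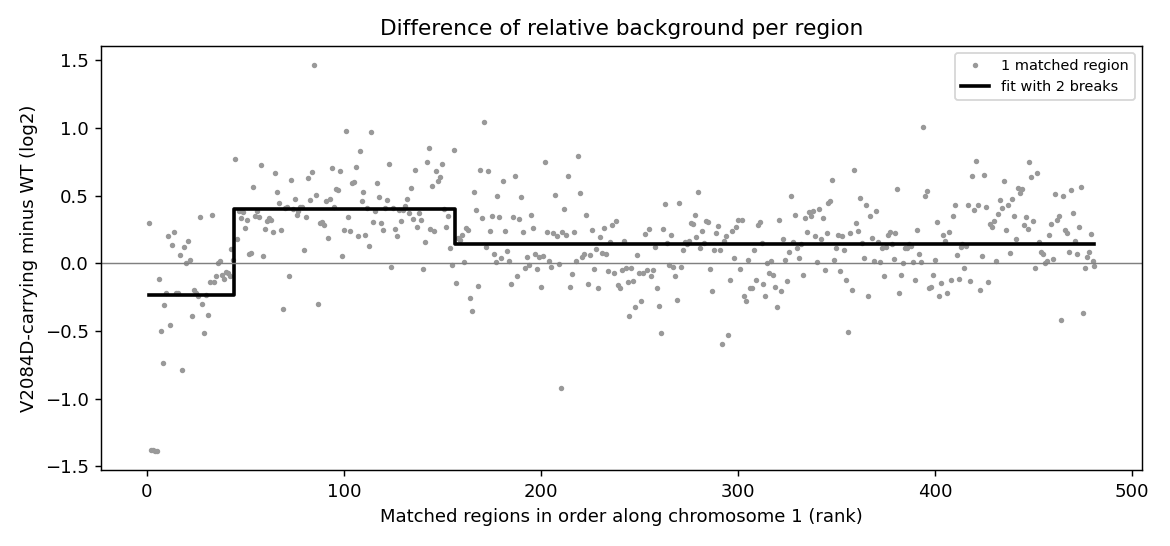
Difference of relative background per matched region, V2084D-carrying minus WT (y axis, log2), with the 481 regions in their order along chromosome 1 on the x axis (rank). Grey points are regions and the black line is the fit with 2 breaks, which stands at -0.23 over the first 44 regions (-0.12 without 4 regions near the short arm end that average -1.38), at 0.40 over the next 112 and at 0.15 over the last 325.

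Over fits to the same regions, the first boundary was placed more firmly than the second. Fitted to 1 library at a time, the first boundary fell in the same interval for V2084D replicate 2 and both V2084D shSTUB1 libraries, and at 28.5 Mb for V2084D replicate 1. Against WT replicate 1 alone it fell at 28.6 Mb, and against WT replicate 2 alone at 24.6 Mb, so its place depended on WT replicate 1. Summit reads gave 28.6 Mb and a single break 25.2 Mb. The second boundary ranged from 52.0 to 70.2 Mb over the same fits and lay at 77.7 Mb by summit reads. Other peak settings moved both boundaries further. They lay at 31.4 and 69.4 Mb with lists of equal length, and at 35.7 and 76.1 Mb with −log10 q of at least 5. With peaks that cover 50% of the region they lay at 52.1 and 151 Mb. With 3 breaks, the added one fell at 215 Mb, with a mean difference of 0.12 log2 before it and 0.27 after it, and lowered the unexplained variance only to 72.0% of the total, against 74.2% with 2 breaks.

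The regions next to the first boundary showed the step directly. The last region before it lay at the first or last base of YTHDF2, which encodes a reader of methylated adenosine in RNA. That region had a relative background of 1.66 and 1.29 in V2084D, 1.37 and 1.40 in V2084D shSTUB1, and 1.30 and 1.5 in WT. The first region after the boundary lay at the first or last base of SRSF4, a splicing factor gene. It had 2.76 and 2.87 in V2084D, 2.90 and 3.25 in V2084D shSTUB1, and 1.70 and 1.74 in WT. YTHDF2 thus differed by 0.03 log2 with overlapping groups, and SRSF4 by 0.77 log2 without overlap. Both were singled out because they border the boundary. Between them lay EPB41, the gene of the red cell membrane protein 4.1, with OPRD1, an opioid receptor gene, and TMEM200B as its neighbours. At the second boundary the last region before it, at CZIB, differed by 0.83 log2 and the first after it, at NDC1, a nuclear pore gene, by -0.15, but the regions before CZIB at ZYG11A and PRPF38A differed by only -0.01 and 0.11. The gene across that boundary was GLIS1, and DMRTB1 stood before it.

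ARID1A itself lay before the first boundary of the fit with 2 breaks to all 6 libraries. With a single break, at 25.2 Mb, and against WT replicate 2 alone, at 24.6 Mb, the boundary fell before the gene. The side on which ARID1A lay thus depended on the fit. The gene spans 26696015 to 26782104 and had a gene-end peak in V2084D shSTUB1 replicate 2 only, from 26695514 to 26695730, with a fold of 5.80, so it was in no matched region. The matched region next to it, at SFN (26864911 to 26865509), had a relative background of 0.732 and 0.764 in V2084D, 0.821 and 0.679 in V2084D shSTUB1, and 1.02 and 0.658 in WT, and the groups overlapped. Over the fits to the same regions described above, the first boundary moved between 24.6 and 29.0 Mb, and some other peak settings put it later. The 13 matched regions in that interval had all 4 V2084D-carrying libraries below both WT libraries by -0.13 log2 in their medians. Of these 13, 1 was above in all 4 V2084D-carrying libraries and none below.

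Near the short arm end, 4 regions between 629464 and 634219 stood apart. This stretch is known as a nuclear copy of mitochondrial DNA, and reads from both sources cannot be told apart there. Their shared background was 979 to 981 and 811 to 813 reads per 10 kb in V2084D, 861 to 864 and 619 to 620 in V2084D shSTUB1, and 1296 to 1301 and 1549 to 1553 in WT. Relative to the library median they were lower in V2084D-carrying libraries by -1.38 to -1.39 log2. Without these 4 the first 15 Mb differed by -0.10 log2 in place of -0.17, and both boundaries stayed where they were. The value of the first 15 Mb also moved to -0.27 without WT replicate 1 and to -0.28 without WT replicate 2. It was -0.96 with lists of equal length and -1.31 with peaks that cover 50% of the region.

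V2084D shSTUB1 and V2084D lay close together along chromosome 1. The long minus short arm difference was -0.11 and -0.20 log2 in V2084D shSTUB1 and -0.17 and -0.15 in V2084D, a mean difference of 0.01 (exact permutation test, two-sided p = 1, n = 2 each). The same difference of region shares was -0.92 and -1.20 percentage points in V2084D shSTUB1 and -0.94 and -1.25 in V2084D, a mean difference of 0.03 (exact permutation test, two-sided p = 0.667, n = 2 each). With 2 against 2 libraries this test cannot give a p under 0.33, so it could not have shown a difference. Over the 16 segments V2084D shSTUB1 minus V2084D ranged from -0.09 to 0.08 log2, and from 30 to 45 Mb it was -0.05. Both V2084D shSTUB1 libraries lay above both V2084D libraries in 1 of the 16 segments and below both in 6, together 43.8%, while 28.6% of the segments of the genome had no overlap. Between the 2 boundaries the medians of both groups differed by -0.0040 log2. Of the 481 matched regions, both V2084D shSTUB1 libraries lay above both V2084D libraries in 87 (18.1%), against a genome background of 17%, and below both in 69 (14.3%), against 16.9%.

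A protein-coding gene was taken to have a gene-end peak where a peak came within 1000 bp of its first or last base. Of 2061 protein-coding genes on chromosome 1, 456 (22.1%) carried one in all 6 lists, against 15.1% on the other chromosomes. On the short arm these were 239 of 1088 and on the long arm 217 of 973. All 4 V2084D-carrying libraries and neither WT library had one at 68 genes (3.30%), against a genome background of 3.06%, with 30 on the short and 38 on the long arm. No chromosome 1 gene had one in both WT libraries alone, against a genome background of 0.025%. Among the 423 genes with 1 matched region, 319 had a higher background in V2084D-carrying than in WT libraries, with a median difference of 0.21 log2. These are the values of the matched regions above, and genes at a shared region count separately. The share among the genome's genes is not given here, so the count is no separate support.

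The strongest short arm genes with a peak in all 6 libraries all lay between 30 and 45 Mb. ARMH1 and TMEM53 shared 1 region (44674038 to 44675037) with folds of 8.67 and 11.5 in V2084D, 11.1 and 9.83 in V2084D shSTUB1, and 10.8 and 11.9 in WT. Its relative background was 2.44 and 2.13 in V2084D, 2.27 and 2.32 in V2084D shSTUB1, and 1.74 and 2.11 in WT, so the groups differed in background while the folds overlapped. PEF1, which encodes a calcium-binding protein, had a relative background of 2.32 and 2.29 in V2084D, 2.49 and 2.25 in V2084D shSTUB1, and 1.77 and 1.97 in WT. PLK3, a polo-like kinase gene, had 1.80 and 2.01 in V2084D, 2.03 and 2.17 in V2084D shSTUB1, and 1.49 and 1.74 in WT. RBBP4, a histone-binding subunit of several chromatin complexes, had folds of 8.97 and 9.59 in V2084D, 8.95 and 11.2 in V2084D shSTUB1, and 7.67 and 8 in WT.

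The strongest long arm genes differed among themselves. ENSA, whose product restrains the phosphatase PP2A at mitosis, had a relative background of 1.27 and 1.02 in V2084D, 1.49 and 1.26 in V2084D shSTUB1, and 1.79 and 1.82 in WT, lower in all V2084D-carrying libraries by -0.53 log2. Its summit reads were lower too, by -0.44 log2. The histone genes H2AC25 and H2BC26, which share the region from 228457187 to 228458694, had 3.02 and 3.27 in V2084D, 3.37 and 2.79 in V2084D shSTUB1, and 2.28 and 2.87 in WT, and overlapped. ZNF678, a zinc finger gene, and SCYL3, a pseudokinase gene, differed by 0.08 and 0.20 log2 with overlapping groups.

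The genes with a peak in the V2084D-carrying libraries alone were led by weaker peaks. ZYG11B, a substrate receptor of a cullin ligase, had folds of 7.14 and 6.41 in V2084D shSTUB1 and 7.32 and 9.38 in V2084D, with no listed peak at the gene in WT. SLC30A7, a zinc transporter gene, and ERMAP, which encodes a red cell membrane protein, were also in this class on the short arm. On the long arm DHX9, an RNA helicase gene, led with folds of 9.69 and 6.42 in V2084D shSTUB1 and 6.98 and 7.50 in V2084D, on 11 to 24 reads. The histone genes H2BC18 and H3C13, PRRC2C and the cullin adaptor gene KLHL12 followed. At KLHL12 the merged region (202926754 to 202927689) had peaks in all 6 libraries, and only those of the V2084D-carrying libraries reached within 1000 bp of the gene's end. Both WT lists were among the 3 shortest, and the part of list length in these calls was not tested.

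Gene lists of chromosome 1 differed in how many members had open ends. Of 29 cell cycle, p53 and DNA repair genes, 18 had a peak in all 6 libraries, against 22.1% of all chromosome 1 genes, and of 13 chaperone and folding genes 7 had one. The counts were 11 of 30 proteasome and ubiquitin genes, 9 of 24 chromatin regulators, 8 of 31 lipid and xenobiotic metabolism genes, 6 of 17 long arm oncogene candidates, 4 of 13 ribosomal protein genes, 2 of 10 short arm tumour suppressor candidates and 1 of 10 AP-1, TGF-beta and YAP genes. None of 17 liver secreted protein and coagulation genes, 10 liver transcription factor genes, 14 leukocyte genes and 10 muscle and neuronal genes had one, and 1 of 21 epidermal differentiation and S100 genes did. No listed gene was private to WT, and 9 of the 235 were private to the V2084D-carrying libraries, among them the chaperone gene HSPA6, the coagulation factor gene F3 and the deubiquitinase gene USP48. These 9 were 3.83% of the listed genes, near the 3.30% of all chromosome 1 genes and the 3.06% of the genome's genes, so the count is no result about the lists.

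Single genes of the lists differed in background, and most did not separate the groups. Of 59 listed genes with 1 matched region, 20 (33.9%) had all 4 V2084D-carrying libraries above both WT libraries, beside 36.9% of the 423 such genes of the chromosome, and 1 had all 4 below. CDKN2C, a cell cycle inhibitor gene that starts at 50960745, had a relative background of 2.15 and 2.18 in V2084D, 1.82 and 1.87 in V2084D shSTUB1, and 1.16 and 1.47 in WT. HDAC1, a histone deacetylase gene that starts at 32292083, had 1.80 and 1.83 in V2084D, 2.13 and 2.09 in V2084D shSTUB1, and 1.74 and 1.37 in WT. ACADM, which starts the breakdown of medium-chain fatty acids, had 1.29 and 1.27 in V2084D, 1.09 and 1.57 in V2084D shSTUB1, and 0.767 and 0.895 in WT. All 3 lay on the short arm past the first boundary and were higher in every V2084D-carrying library. Other listed genes past that boundary had groups that overlapped. The differences V2084D-carrying minus WT were 0.51 log2 for the mitochondrial ribosomal protein gene MRPS15, 0.30 for the histone demethylase gene KDM4A and 0.26 for the centriole duplication gene STIL. From 60 to 75 Mb they were -0.17 for the deubiquitinase gene USP1, -0.15 for the cystathionine gamma-lyase gene CTH and 0.04 for the stress response gene GADD45A. EXO1, a DNA repair nuclease gene in the last segment of the long arm, had 1.37 and 1.28 in V2084D, 1.33 and 1.42 in V2084D shSTUB1, and 0.953 and 0.895 in WT. CAMTA1 in the first segment had 0.780 and 0.640 in V2084D, 0.567 and 0.849 in V2084D shSTUB1, and 0.837 and 1.11 in WT, where the groups overlapped. The median difference over the members with 1 matched region was 0.29 log2 for 8 chromatin regulators, 0.28 for 8 metabolism genes, 0.17 for 18 cell cycle and repair genes and 0.11 for 10 proteasome and ubiquitin genes, beside 0.21 for all 423 such genes of the chromosome.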

How the data were processed

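Each library came with 1 MACS2 peak list (narrowPeak, hg38, per the submitters' processing notes, which also name Trimmomatic, Bowtie2, SAMtools, Picard, bedtools and deepTools), so peaks were called per sample. Whether reads were shifted to the cut site, and all tool versions and settings, were not given in the sources used here. Each peak's fold is the authors' deposited ratio of summit reads to local background, and its −log10 p and −log10 q were deposited by the authors as well. The deposited score is the whole part of 10 times −log10 q and was not used. Summit reads and reads in 10 kb were solved from fold and −log10 p under a Poisson model, with a pseudocount of 1 and a 200 bp window, within 0.001 of −log10 p. Where 2 solutions existed (54 to 123 summits per library), the one with a whole-number background was taken. Depth is the lowest background of a library, 6.54 to 12.0 reads per 10 kb, and few reads limit the precision of each peak. Solving and level fit were tested on simulated data. Chromosomes 1 to 22 and X were kept. Genes, promoters and arms came from RefSeq tables (GRCh38.p14), in which 235 of 236 listed genes matched. The members and lists were chosen with earlier results of these data known. Genes named were, per arm and presence class, the 5 highest by mean percentile of −log10 q, the top region of each segment, those beside boundaries, ARID1A and up to 4 per list. One region that this rule names is not reported here. Named after their values were seen were NR5A2, YTHDF2, SRSF4, CZIB, ZYG11A, PRPF38A, SFN, HSPA6 and USP48. Groups were compared by whether their libraries overlapped, and V2084D shSTUB1 with V2084D by exact permutation tests, whose p-values measure only the spread between these libraries. Alternatives were another peak threshold, list length, overlap, region, summit, matching, centring, segment size and number of breaks, and each library left out. Python 3.11.15, numpy 2.4.6, pandas 2.3.3 and scipy 1.17.1 were used.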

Additional observations from a re-analysis of the deposited data

How the results depend on the processing

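With peaks of −log10 q of at least 5, the arm difference V2084D-carrying minus WT was -0.22 log2 for background and -0.24 for summit reads, 63 regions were private to the V2084D-carrying libraries and 3 to WT, and the boundaries lay at 35.7 and 76.1 Mb. With lists of equal length these were -0.15 log2 for summit reads, 0.317 percentage points for shares, 32 and 14 regions, and 31.4 and 69.4 Mb, and the arm difference V2084D shSTUB1 minus V2084D turned to -0.016 log2. With 50% coverage of the region the arm difference V2084D-carrying minus WT turned to 0.032 log2 for background and was 0.046 for summit reads, the share difference V2084D shSTUB1 minus V2084D turned to -0.266 points, and the boundaries lay at 52.1 and 151 Mb, on 72 regions. With 200 bp windows at summits the background arm difference was -0.035 log2 (V2084D-carrying minus WT) and -0.0083 (V2084D shSTUB1 minus V2084D), 5 regions were private to WT and the second boundary lay at 69.4 Mb. The mean over all summits gave -0.10 log2 for summit reads, pairs of libraries -0.045 for background, summit reads a second boundary at 77.7 Mb, and 1 break a boundary at 25.2 Mb. Chosen after seeing the data, local reads less summit reads turned V2084D shSTUB1 minus V2084D to -0.022 log2, and no centring left 4 segments without overlap, in place of 11. The cause was not tested in any of these.

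Leaving out 1 library at a time, the arm difference V2084D-carrying minus WT ranged from -0.18 to -0.049 log2 for summit reads, and V2084D shSTUB1 minus V2084D from -0.031 to 0.049 log2 and from -0.159 to 0.208 points. Regions private to the V2084D-carrying libraries numbered 104 to 268 and to WT 1 to 63. Leaving out a library drops a condition of these counts, which by itself can only keep or raise them. The first boundary ranged from 24.6 to 28.9593 Mb and the second from 53.2735 to 70.2 Mb. Replicate numbers did not pair the libraries (correlations -0.03, -0.06 and 0.0036), and with the replicate block the arm difference V2084D-carrying minus WT stayed at -0.092 log2, with exact permutation p = 1 for background and 0.5 for shares in V2084D shSTUB1 against V2084D. Over all results and alternatives, 127 values kept direction and size, 53 moved and 9 reversed. The difference from 30 to 45 Mb was positive in every alternative run.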

Other observations

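Of 136 miRNA hairpins on chromosome 1 in the RefSeq table, 14 had a region within 1000 bp, and 6 of these (MIR12136, MIR6733, MIR4258, MIR92B, MIR5187 and MIR3124) had it in all 6 libraries. MIR12136 lies from 632615 to 632685, in the stretch of the short arm end with the mitochondrial copy.

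Gene ends held 76.7% of the chromosome 1 regions with a peak in all 6 libraries and 23.4% of those with a peak in 1 library. Of the regions private to the V2084D-carrying libraries, 54.5% on chromosome 1 and 68.5% on the other chromosomes lay at gene ends.

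On unplaced contigs assigned to chromosome 1 the lists held 12 and 37 summits in V2084D, 26 and 21 in V2084D shSTUB1, and 10 and 12 in WT.

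The region with the highest −log10 q from 90 to 105 Mb (91387136 to 91387648, at 20359 bp from HFM1) differed by -0.92 log2 in relative background, below in all 4 V2084D-carrying libraries, while its segment was above. The top region from 150 to 165 Mb (161469183 to 161470577) had 358 and 757 reads per 10 kb in V2084D, 557 and 423 in V2084D shSTUB1, and 306 and 220 in WT.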
